A study of Xenopus laevis with 12 samples.

Results

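Trunk and posterior Hox genes were followed across 12 microarrays of Xenopus laevis animal caps. The genes were hoxb5, hoxc5, hoxc6, hoxa7, hoxb7, hoxc8, hoxd8, hoxd9 and hoxc10. They were taken by symbol, after removal of the .L or .S ending that marks the 2 homeologous copies of a gene in this frog. They were 9 of 6505 gene names and were read by 14 of 15503 probe sets. A single probe set read each of 5 genes, 2 read each of hoxc6, hoxd8 and hoxd9, and 3 read hoxb7.

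Hox genes encode homeodomain transcription factors that give cells their position along the head to tail axis. They lie in clusters, and genes at the low numbered end of a cluster are as a rule switched on earlier and closer to the head than genes at the high numbered end. Retinoic acid, Wnt and FGF signals and the Cdx factors turn them on in the gastrula and neurula, in mesoderm and in neural tissue. In vertebrates Hox activity also helps to place organs of the trunk, the kidney among them.

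The explants came from the animal pole of the blastula, a pluripotent ectoderm that forms epidermis when it is cultured alone. Untreated caps (C) were compared with caps cultured in 10 ng/ml activin and 0.0001 M retinoic acid (AcRA), which induces pronephric tissue. Activin is a TGF-beta family ligand that induces mesoderm and endoderm. The same 2 cultures were made with caps of embryos injected into both cells of the 2-cell stage with 800 pg of an antisense oligonucleotide against lhx1, an early kidney regulator. These caps were untreated (lhx1-AS) or induced (lhx1-AS/AcRA). No group received a control oligonucleotide, so an effect through lhx1 and any other effect of the injection cannot be told apart. Experiments I, II and III gave 1 array apiece to every group, hence 3 arrays a group, and every RNA was a pool of 12 whole caps. In such pools, fewer cells of a type and less RNA per cell cannot be told apart. The labels give a harvest at sibling stage 12.5. The paper's text names a later stage.

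Signals were linear and in arbitrary units, and every array had a trimmed mean of 500.1, with medians of 106 to 149. The probe set of the targeted gene itself did not read lower under the label lhx1-AS/AcRA. Lhx1 signal was 316, 823 and 779 on the AcRA arrays, in the order of the experiments, and 1140, 991 and 1610 on lhx1-AS/AcRA-labelled arrays, so lhx1 RNA was not lower there (log2 difference 1.06 ± 1.05 SE, limma adjusted p = 0.620). On the C arrays it was 19.8, 2.19 and 2.60, and on the lhx1-AS arrays 1.55, 42.6 and 3.20. The paper describes this antisense as depleting lhx1 mRNA, and in induced caps this probe set showed no such decrease. The reason was not tested, so the label could not be checked by this probe set. Markers of other tissues also moved with the groups. The summed signal of 11 epidermal markers was 46737 to 62648 on C arrays, 22758 to 35242 on AcRA arrays, 40228 to 46946 on lhx1-AS arrays and 3116 to 13911 on lhx1-AS/AcRA-labelled arrays. For 11 organizer and axial mesoderm markers the sums were 338 to 805, 666 to 1428, 1096 to 1423 and 11629 to 24224 in the same order. For 7 paraxial mesoderm markers they were 94.0 to 187, 619 to 1400, 130 to 245 and 292 to 877. For 6 early kidney markers, lhx1 among them, they were 947 to 1247, 1291 to 1813, 991 to 1255 and 2006 to 3017. For 7 endoderm markers they were 916 to 1748, 6282 to 10311, 526 to 1626 and 17873 to 23070. For 12 neural plate and posterior neural markers they were 4381 to 8171, 5384 to 9993, 3703 to 5435 and 8189 to 10360. Markers of cement gland and of blood and lateral plate were also measured and are not given. Such sums lean on the brightest genes. At a limma adjusted p under 0.05, 3 of the 11 epidermal markers were lower in AcRA than in C and 0 higher. On lhx1-AS/AcRA-labelled arrays 5 were lower than on AcRA arrays and 1 was higher. In that comparison 7 of the 11 organizer and axial mesoderm markers were called higher. Of the 6 early kidney markers 1 was, and of the 7 paraxial mesoderm markers 0 were, and 0 in these lists were lower. Of the 7 endoderm markers 2 were higher and 0 lower there, and of the 12 neural markers 2 were higher and 2 lower. In AcRA against C, 3 of the endoderm markers were higher and 0 lower, and 3 of the neural markers were higher and 1 lower. The part of these shifts in the Hox values was not tested.

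The Hox genes were dim in untreated caps. On each C array, 11 to 13 of the 14 probe sets lay under the 25th percentile of that array's signals, which was 26.9 to 43.8. On the AcRA arrays 3 to 5 did, on the lhx1-AS arrays 8 to 12, and on lhx1-AS/AcRA-labelled arrays 2 to 6. Differences below are in log2 signal with limma's standard error (SE), and a call is an adjusted p under 0.05 over all 15503 probe sets. Because the C values lie so low, a fold against them depends strongly on how low signals are treated.

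**Figure D1:**
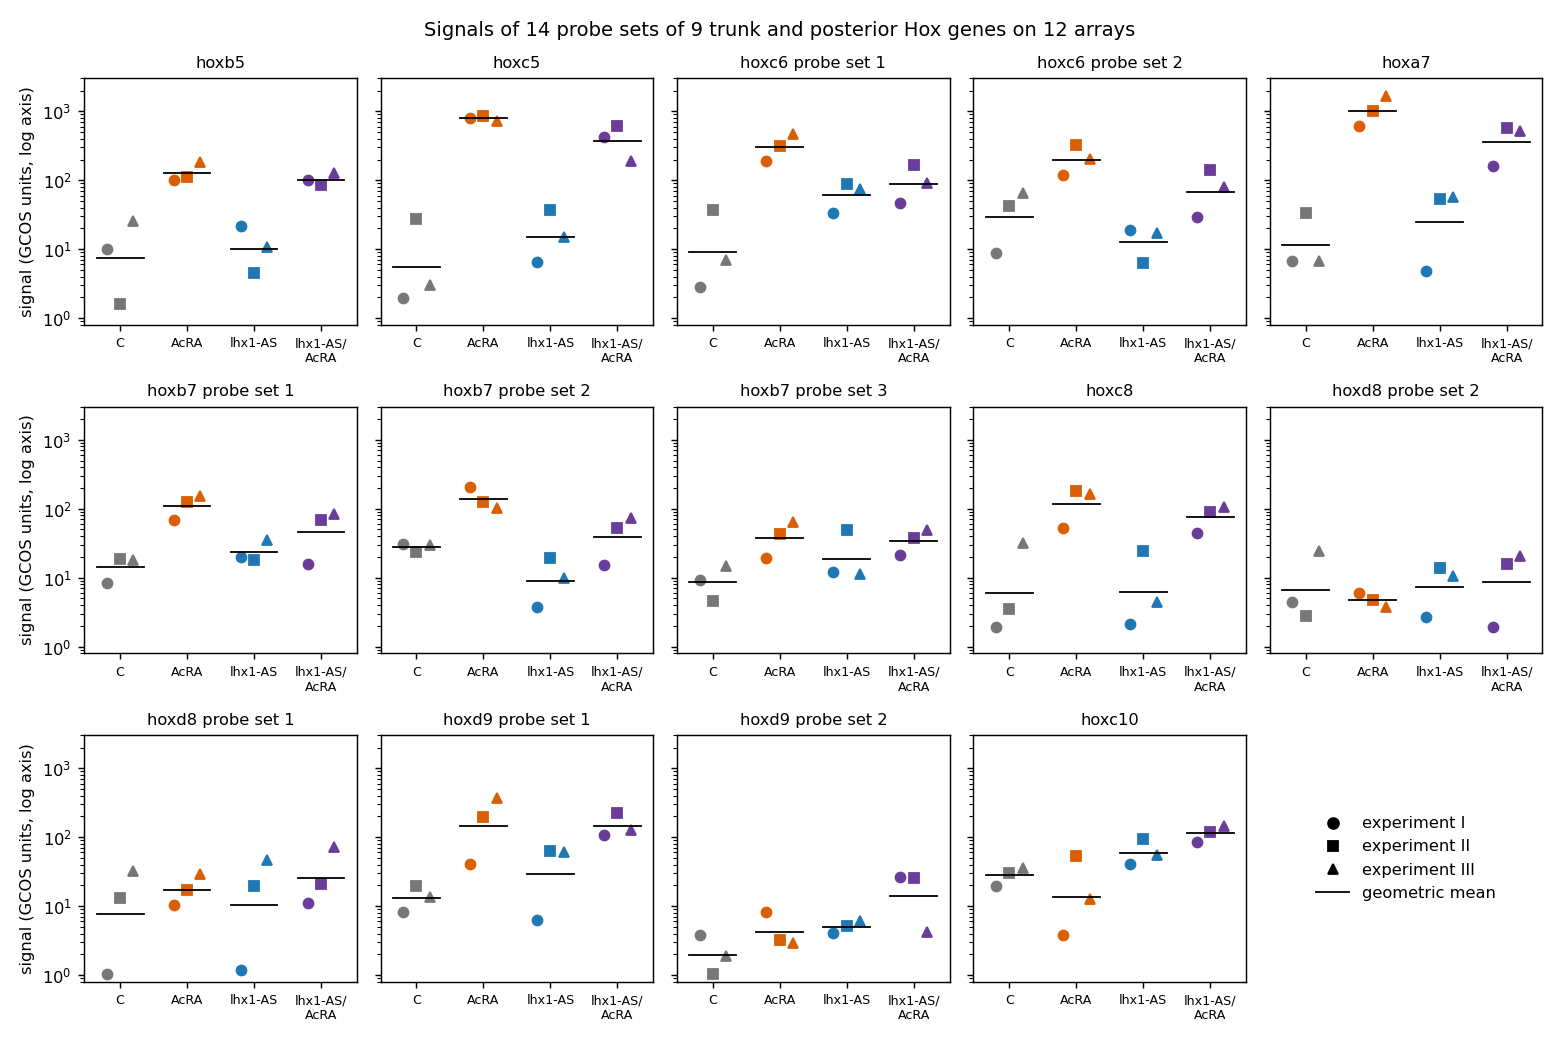
Signal of each of the 14 probe sets on each array, on a logarithmic axis in GCOS units, with 1 point per array, the marker giving the experiment and the line the geometric mean of 3 arrays. The AcRA points of hoxc5 lie at 733 to 850, above C points of 1.95 to 27.7, whereas the hoxd8 points of the 4 groups overlap.

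The first question was which trunk and posterior Hox genes AcRA turned on in uninjected caps. A rise was called for 7 of the 9 genes, by 2.94 to 7.18 on the log2 scale, and hoxd8 and hoxc10 did not pass the test. Of the 14 probe sets, 7 were called higher and 0 lower, beside 3.09% of all probe sets called higher and 2.62% called lower. Without adjustment 10 had a p under 0.05 and were higher, beside 7.80% of all probe sets. The AcRA arrays lay entirely above the C arrays for 10 of the 14, beside 11.1% of all probe sets. The median difference of the 14 was 2.86, beside 0.01 over all probe sets.

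Hoxc5, which in the mouse acts in cervical motor neurons, and hoxa7 had the largest differences of the 14. The hoxc5 signal was 1.95, 27.7 and 3.01 on the C arrays, again by experiment, and 796, 850 and 733 on the AcRA arrays. Each AcRA array was far above each C array, and the AcRA arrays were close to each other. The difference was 7.18 ± 0.87 (adjusted p = 0.00017), a 145-fold ratio of geometric means. With 64 added to every signal before the logarithm it was 3.53 and still called. Hoxc5 stayed called whichever array was left out.

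Hoxb5, known in the mouse for its part in the neural crest that forms the enteric nerves, was less strongly induced. It had signals of 10.1, 1.58 and 25.6 in C and of 102, 110 and 186 in AcRA. The groups did not overlap, and on the log2 scale the spread was wider among the C arrays. Its difference was 4.11 ± 0.89 (adjusted p = 0.0121), and it was not called without the AcRA array of experiment III.

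Hoxa7, which helps to pattern thoracic vertebrae in the mouse, rose as well. Its C signals were 6.82, 33.8 and 6.72 and its AcRA signals 609, 1000 and 1660. All experiments showed a rise, of 6.48, 4.89 and 7.95 on the log2 scale. The fitted difference was 6.44 ± 0.90 (adjusted p = 0.000469). With 64 added to every signal it was 3.77, above that of hoxc5, so the order of these genes depends on how low signals are treated.

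Hoxc6, a trunk gene expressed in the anterior spinal cord and mesoderm of the frog, was read by 2 probe sets of the same homeolog, hoxc6.S. For probe set 1 the C signals were 2.84, 37.0 and 6.88 and the AcRA signals 193, 317 and 471. For probe set 2 they were 8.87, 41.9 and 65.8 in C and 121, 324 and 204 in AcRA. Both probe sets read higher on each AcRA array than on any C array. Probe set 1 differed by 5.09 ± 0.81 (adjusted p = 0.00124). Probe set 2 differed by 2.78 ± 0.80, which was not called (adjusted p = 0.0607) but was called with the experiment as a block (adjusted p = 0.0217). That block raised the calls among the 14 to 8, beside 10.4% of all probe sets called either way.

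Hoxb7, which in the mouse marks the nephric duct and ureteric bud, was read by 3 probe sets, 2 for the .L and 1 for the .S copy. Probe set 1, for hoxb7.L, read 8.47, 18.6 and 17.8 in C and 67.5, 124 and 153 in AcRA. Probe set 2, also for hoxb7.L, read 30.5, 23.7 and 29.9 in C and 205, 124 and 104 in AcRA. Both showed every AcRA array above every C array, although experiment I was the lowest AcRA array for one and the highest for the other. Probe set 1 differed by 2.94 ± 0.70 (adjusted p = 0.0209) and probe set 2 by 2.31 ± 0.74 (adjusted p = 0.0962). For hoxb7.S the C signals were 9.22, 4.64 and 14.9 and the AcRA signals 19.5, 43.5 and 65.1. Its groups did not overlap either, and the difference of 2.15 ± 0.80 was not called (adjusted p = 0.171). The call of probe set 1 was lost without the C array of experiment I or the AcRA array of experiment II or III.

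Hoxc8, which in the mouse sets the identity of brachial motor neurons, read 1.92, 3.52 and 32.2 in C and 53.3, 179 and 165 in AcRA. The AcRA arrays were higher in each experiment, and the third C array was well above the other two. The difference was 4.27 ± 1.08 (adjusted p = 0.0294). It was not called without the C array of experiment I or II or the AcRA array of experiment II or III.

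Both HoxD genes were read by pairs of probe sets. Hoxd9, which acts in the mouse forelimb, read 8.26, 19.8 and 13.5 in C and 41.4, 198 and 365 in AcRA with probe set 1. The difference was 3.47 ± 0.91 (adjusted p = 0.0372), with the arrays of the groups apart, but it was lost without any 1 of the C arrays or the AcRA array of experiment II or III. Probe set 2 read at most 26.2 on any of the 12 arrays and differed by 1.13 ± 1.12 (adjusted p = 0.799). Hoxd8, its neighbour in the cluster, read 1.05, 13.1 and 32.7 in C and 10.3, 17.4 and 29.3 in AcRA with probe set 1. With probe set 2 it read 4.39, 2.80 and 24.4 in C and 6.06, 4.67 and 3.76 in AcRA. The groups overlapped with both probe sets, and they differed by 1.18 ± 1.42 (adjusted p = 0.858) and -0.50 ± 1.21 (adjusted p = 0.955). The intervals of hoxd8, -1.86 to 4.22 and -3.09 to 2.09, are too wide to place its response.

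Hoxc10, the most posterior of the genes and known in the mouse from lumbar motor neurons and the hindlimb, did not pass the test. Its signals were 19.8, 30.6 and 35.9 in C and 3.84, 53.4 and 12.5 in AcRA. AcRA arrays lay below C in experiments I and III and above it in experiment II. The difference was -1.03 ± 0.79 (adjusted p = 0.682), with a 95% interval of -2.72 to 0.66.

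The median response was larger among the probe sets of the lower numbered genes. For the 8 probe sets of paralog groups 5 to 7 the AcRA differences were 2.15 to 7.18 with a median of 3.53, and 5 were called. For the 6 probe sets of groups 8 to 10 they were -1.03 to 4.27 with a median of 1.16, and 2 were called. Both hoxd8 probe sets and hoxd9 probe set 2, which enter this median, were dim, with mean log2 signals of 2.29 to 3.78. The called ones, hoxc8 (4.27) and hoxd9 probe set 1 (3.47), lay above every hoxb7 probe set (2.15 to 2.94). The 4 HoxC genes were read as hoxc5.L, hoxc6.S, hoxc8.S and hoxc10.L, so they lie in 2 homeologous clusters and not in a single one. Across them the mean differences descended from hoxc5 (7.18) through hoxc6 probe set 1 (5.09) and hoxc8 (4.27) to hoxc10 (-1.03). This order was seen in 2 of 3 experiments. It depended on the hoxc6 probe set, since probe set 2 (3.77, 2.95 and 1.63) lay below hoxc8 (4.80, 5.67 and 2.35) in every experiment. In experiment II hoxc8 had the largest response of the 4 HoxC genes, 5.67, beside 4.94 for hoxc5. The differences between genes were not tested, and each is a difference within a gene, since the signals of different probe sets are not on 1 scale.

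**Figure D2:**
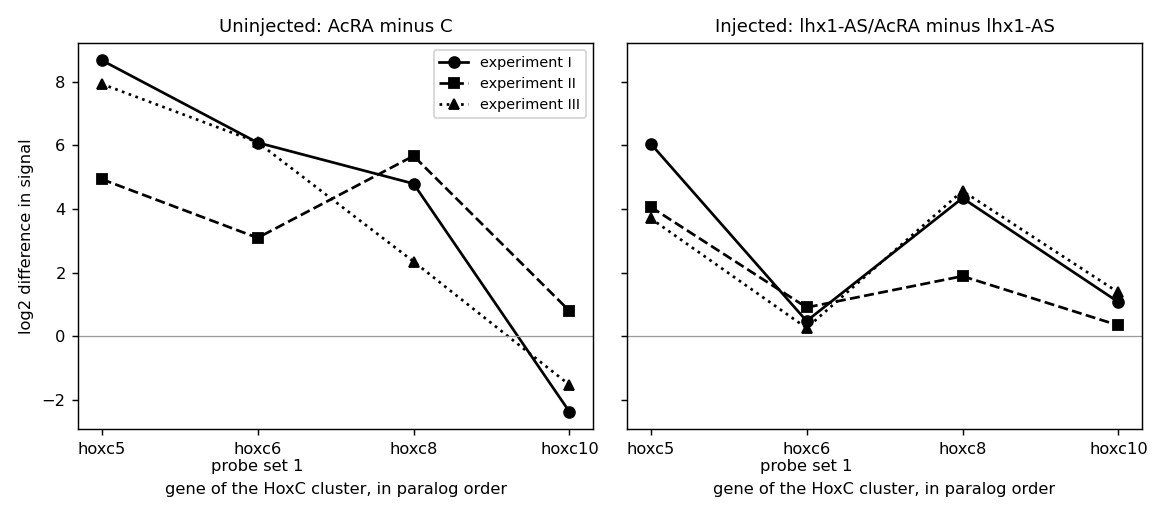
Log2 AcRA response of 4 HoxC genes (hoxc5.L, hoxc6.S, hoxc8.S and hoxc10.L) in paralog order, with 1 line per experiment, for uninjected caps on the left and injected caps on the right. The hoxc6 points are those of probe set 1, and probe set 2 is not drawn. On the left all lines end with hoxc10 lowest, at -2.37, 0.80 and -1.52, and on the right hoxc6 probe set 1 drops to 0.48, 0.91 and 0.26.

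The calls of the AcRA comparison rested on few arrays. Leaving out the AcRA array of experiment III left 3 of the 7 calls, and leaving out the C array of experiment I or the AcRA array of experiment II left 4. Experiment I tended to be the lowest array for these genes. It was lowest for 8 of 14 probe sets among C arrays, 10 among AcRA arrays, 10 among lhx1-AS arrays and 11 among those labelled lhx1-AS/AcRA, where over all probe sets it was lowest for 38.8, 40.1, 42.8 and 39.3%. A rise of mean signal of at least 4-fold with an unadjusted p under 0.05 in the methods' t-test was found for 8 of the 14 probe sets, beside 2.55% of all.

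The next question was whether caps of injected embryos showed the same response when they were induced. Comparing lhx1-AS/AcRA-labelled arrays with lhx1-AS, hoxc5, hoxa7 and hoxb5 rose. These 3 of 14 probe sets were called higher and 0 lower, beside 4.00% and 4.09% of all probe sets. All 14 differences were above 0, beside 49.8% of all probe sets, and their median was 1.80, beside -0.0033 over all. Of the 14, 7 had an unadjusted p under 0.05, beside 8.68% of all that were higher at that p. For 6 of the 14 the induced arrays lay entirely above the uninduced arrays, beside 10.1% of all. With the experiment as a block 6 were called, beside 13.0% of all probe sets either way.

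The hoxc5 signal was 6.42, 36.5 and 14.8 on the lhx1-AS arrays and 426, 611 and 193 on lhx1-AS/AcRA-labelled arrays. All induced arrays were well above the uninduced arrays, by 4.61 ± 0.87 (adjusted p = 0.00296). Hoxa7 read 4.87, 53.9 and 57.9 without AcRA and 160, 567 and 521 with it, a difference of 3.87 ± 0.90 (adjusted p = 0.0136). Hoxb5 read 21.9, 4.46 and 10.7 without and 99.4, 85.5 and 126 with AcRA, a difference of 3.33 ± 0.89 (adjusted p = 0.0317). These genes kept groups that did not overlap. Leaving out the lhx1-AS/AcRA-labelled array of experiment II or III ended the calls of hoxa7 and hoxb5, and 1 probe set was then called. Hoxb5 was also lost without the lhx1-AS array of experiment II or III or the lhx1-AS/AcRA-labelled array of experiment I.

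Another 3 probe sets gained a call with the block. Hoxc8 read 2.16, 24.1 and 4.49 on lhx1-AS arrays and 44.0, 89.5 and 107 on the induced arrays. It differed by 3.60 ± 1.08 (adjusted p = 0.0563, blocked 0.0134). Of 21 alternatives it was called in 8, among them both scalings and 16 added to the signals, and not called in 13. Those 13 include leaving out any 1 of the AcRA or lhx1-AS/AcRA-labelled arrays. Hoxc6 probe set 2 read 19.0, 6.37 and 17.0 without and 29.4, 139 and 78.6 with AcRA. It differed by 2.43 ± 0.80 (adjusted p = 0.0896, blocked 0.0354). Hoxd9 probe set 1 read 6.37, 64 and 61.8 without and 108, 221 and 128 with AcRA. It differed by 2.31 ± 0.91 (adjusted p = 0.178, blocked 0.0233). The HoxC order seen in uninjected caps was seen in 0 of 3 experiments here. The 3 hoxb7 probe sets differed by 0.95, 2.11 and 0.85, and none was called.

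**Figure D3:**
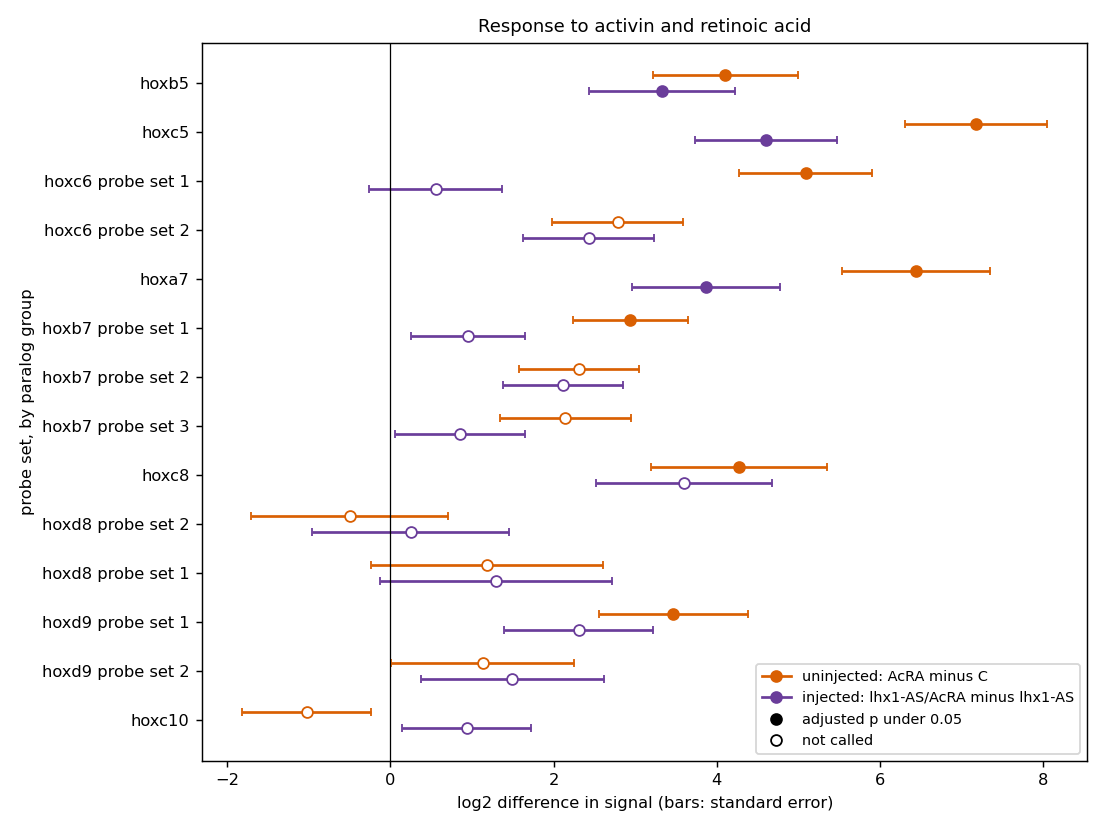
Log2 AcRA response of each probe set with its standard error, in uninjected caps (orange) and injected caps (purple), with filled points for calls. Filled orange points are 7 and filled purple points 3, and the widest gap between colours is at hoxc6 probe set 1, 5.09 against 0.55.

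The response of hoxc6 probe set 1 was the one that differed most between the 2 kinds of caps. In injected caps its signals were 33.6, 89.3 and 74.8 without AcRA and 47.0, 168 and 89.8 with it. The groups overlapped and the response was 0.55 ± 0.81 (adjusted p = 0.835), beside 5.09 in uninjected caps. The difference of the responses was -4.54 ± 1.15, negative in 3 of 3 experiments (-5.60, -2.19 and -5.83). It was not called (adjusted p = 0.132) and was called with the experiment as a block (adjusted p = 0.0119). The second probe set of the same homeolog gave a difference of -0.35 ± 1.14 and was negative in 1 of 3 experiments, so the 2 probe sets did not read the same pattern. Among the 14, 0 differences of responses passed in limma, beside 0.439% of all probe sets, and 1 had an unadjusted p under 0.05, beside 6.61% of all. With the block 1 passed, beside 1.54% of all. The median was -0.72 over the 14, -1.64 over groups 5 to 7 and 0.24 over groups 8 to 10.

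Part of that difference lay in the uninduced caps. Hoxc6 probe set 1 read 2.84, 37.0 and 6.88 on C arrays and 33.6, 89.3 and 74.8 on lhx1-AS arrays. The injected caps were higher in each experiment, by 3.57, 1.27 and 3.44, although the 2 groups overlapped by 1 array. The difference was 2.76 ± 0.81 (adjusted p = 0.0571, blocked 0.00502). With 64 added to every signal it was 0.71 (adjusted p = 0.205). Probe set 2 went the other way in experiments II and III, with a fitted difference of -1.19 ± 0.80 (adjusted p = 0.422). Over the 14 probe sets, 0 were called in either direction between lhx1-AS and C, beside 2.52% of all called higher and 4.47% called lower. Without adjustment 1 was higher and 1 lower, beside 22.2% of all probe sets either way. The lower one was hoxb7 probe set 2 at -1.64 ± 0.74 (adjusted p = 0.206). With the block 1 was called, beside 17.8% of all probe sets either way. The median of the 14 was 0.91, and 12 of the 14 were above 0, or 11 after quantile normalization, beside 49.8% of all probe sets in the main fit. With arrays scaled to 1 median this comparison also moved by 0.24 over all probe sets, the share of higher calls went from 36.1 to 62.3%, and 1 member, hoxc6 probe set 1, was called.

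The last comparison asked how induced caps of injected embryos differed from induced uninjected caps. Hoxc10 rose, and the genes of paralog groups 5 to 7 gave lower readings that did not pass the test. Of the 14 probe sets 1 was called higher and 0 lower, beside 2.70% and 6.94% of all probe sets. Without adjustment 1 was higher and 2 were lower at a p under 0.05, beside 22.6% of all probe sets either way. For 4 of the 14 lhx1-AS/AcRA-labelled arrays lay entirely below the AcRA arrays, beside 16.4% of all. With 16 or 64 added to every signal, 1 or 2 of the 14 were called lower, beside 1213 or 1185 of all 15503 probe sets. This comparison uses the same AcRA arrays as the AcRA response in uninjected caps.

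Hoxc10 read 3.84, 53.4 and 12.5 on AcRA arrays and 85.3, 119 and 144 on lhx1-AS/AcRA-labelled arrays. The latter were higher in 3 of 3 experiments, by 4.47, 1.15 and 3.53, and the groups did not overlap. The difference was 3.05 ± 0.79, with a 95% interval of 1.36 to 4.74 (adjusted p = 0.0246). The AcRA signal of experiment I lay under the 10th percentile of that array, 7.58, so this fold also depends on how low signals are treated. With 64 added to every signal before the logarithm the difference was 1.07 and still called. The call was lost without the AcRA array of experiment I or III or the lhx1-AS/AcRA-labelled array of experiment II or III. The lhx1-AS arrays, at 40.4, 93.1 and 55.4, also lay above the C arrays, by 1.09 ± 0.79, which was not called (adjusted p = 0.463).

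All 8 probe sets of groups 5 to 7, of which 2 read hoxc6 and 3 read hoxb7, had negative differences, beside 49.2% of all probe sets. They ran from -1.83 to -0.16 with a median of -1.37. With arrays scaled to 1 median, however, 7 of them were negative and hoxb7.S was at 0.08. That scaling moved the median of all probe sets by 0.24 in this comparison. It moved the share of higher calls among all calls from 28.0 to 49.5%, whereas the members' calls were again hoxc10 alone. Hoxc6 probe set 1 read 193, 317 and 471 on AcRA arrays and 47.0, 168 and 89.8 on the others, lower in every experiment and with no overlap. Its difference was -1.78 ± 0.81 (adjusted p = 0.211, blocked 0.0403). With the block 1 probe set was thus called lower and hoxc10 stayed higher, beside 18.9% of all probe sets called either way. With 64 added to every signal, hoxc6 probe set 1 was also called lower, at -1.24 (adjusted p = 0.0206). Hoxb7 probe set 2 read 205, 124 and 104 on AcRA arrays and 15.1, 52.4 and 73.6 on the others, again with no overlap, and differed by -1.83 ± 0.74 (adjusted p = 0.150). Hoxb7 probe set 1, for the same copy, differed by -1.26 ± 0.70 (adjusted p = 0.320), and the probe set of hoxb7.S by -0.16 ± 0.80 (adjusted p = 0.941). The 95% interval of hoxb7 probe set 1 was -2.77 to 0.24, which holds both 0 and a large decrease.

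Hoxa7 differed by -1.93, -0.82 and -1.67 in the experiments, and its AcRA arrays (609 to 1660) lay above the others (160 to 567). The difference of -1.48 ± 0.90 was not called (adjusted p = 0.377). For hoxc5 the difference was -1.10 ± 0.87 (adjusted p = 0.515), with arrays of 193 to 611 below AcRA arrays of 733 to 850. Hoxb5 at -0.32 ± 0.89, hoxc8 at -0.63 ± 1.08 and hoxd9 probe set 1 at 0.01 ± 0.91 were overlapping between the groups. So were hoxc6 probe set 2 at -1.54 ± 0.80 and hoxd9 probe set 2 at 1.72 ± 1.12. Hoxd8 overlapped too, with probe set 1 at 0.55 ± 1.42 and probe set 2 at 0.86 ± 1.21. A fold of mean signals of at most 0.5 was found for 5 of the 14 probe sets, beside 15.6% of all. Of these 5, 0 had an unadjusted p under 0.05 in the methods' t-test.

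**Figure D4:**
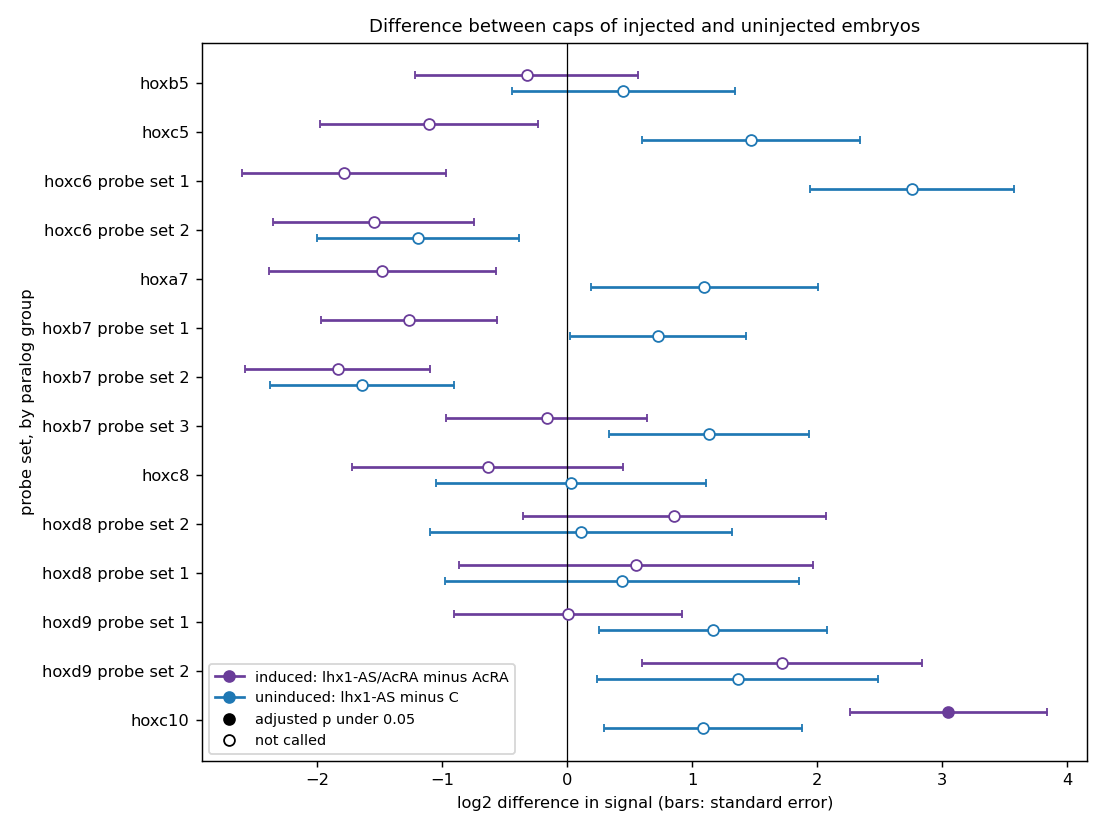
Log2 difference between caps of injected and uninjected embryos with its standard error for each probe set, in induced caps (purple) and uninduced caps (blue). The single filled point is hoxc10 in induced caps at 3.05, and the 8 purple points of paralog groups 5 to 7 lie between -1.83 and -0.16, of which hoxb7 probe set 3 turns to 0.08 with arrays scaled to 1 median.

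Hox genes outside the 9 were measured on the same arrays. Of 4 genes of paralog groups 1 to 4, which pattern hindbrain and anterior trunk, 3 rose with AcRA in uninjected caps. These were hoxb4 (6.68 ± 0.89, adjusted p = 0.000307), hoxa3 (5.41 ± 0.89, adjusted p = 0.00148) and hoxa2 (4.52 ± 0.37, adjusted p = 9.1e-06), while hoxd3 was at 2.90 ± 0.85 (adjusted p = 0.0649, blocked 0.0279). In injected caps the same 3 rose, hoxa3 by 7.25, hoxb4 by 4.70 and hoxa2 by 4.30. The 6 other measured genes of paralog group 5 and above were hoxb9, hoxd10, hoxa11, hoxc12, hoxa13 and hoxd13. None is numbered below 9, so the response of other genes of lower number cannot be read from them. Of the 6, 0 were called by limma in either setting, with 0 at an unadjusted p under 0.05 and 0 with the block. Of these, hoxa11 was at 0.78 ± 1.11 and hoxb9 at 0.09 ± 1.14 in uninjected caps. Between induced caps of injected and uninjected embryos, the median difference of these 6 was 1.36, beside 0.02 over all probe sets, and 0 were called.

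Partners of Hox proteins were partly induced. All of those measured but gmnn are cofactors that bind DNA together with Hox proteins. Of 6 measured, meis2 (3.66 ± 0.79, adjusted p = 0.0114) and pbx2 (1.00 ± 0.23, adjusted p = 0.0188) rose with AcRA, and meis1 was at 2.56 ± 0.91 (adjusted p = 0.144, blocked 0.0441). On lhx1-AS/AcRA-labelled arrays, meis2 was lower than on AcRA arrays by 2.64 ± 0.79 on the log2 scale (adjusted p = 0.0491). In uninduced injected caps meis3 was lower than in C by 1.46 ± 0.40 (adjusted p = 0.0395). In injected caps meis2, meis3 and pbx2 rose with AcRA, by 2.95, 2.01 and 1.33. With the block 4 of the 6 were called in AcRA against C, beside 10.4% of all probe sets either way. In lhx1-AS/AcRA against AcRA, lhx1-AS against C and lhx1-AS/AcRA against lhx1-AS the block gave 3, 2 and 4, beside 18.9, 17.8 and 13.0%. Gmnn, not called without the block, was among them each time. With arrays scaled to 1 median, 0 cofactors were called lower in either injected against uninjected comparison. The 2 AcRA calls became 0 without the C array of experiment I or the AcRA array of experiment II, and 1 without the C or AcRA array of experiment III. The meis2 decrease was lost without any 1 of the AcRA or lhx1-AS/AcRA-labelled arrays or the C array of experiment I or II, and that of meis3 without any 1 of the C arrays, the AcRA array of experiment III or the lhx1-AS array of experiment II.

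Of 20 signals and factors that act upstream of Hox genes, 11 rose with AcRA in uninjected caps and 0 fell. The 4 largest differences belonged to cdx1 (9.01 ± 0.78), cdx4 (8.20 ± 1.06), the retinoic acid hydroxylase cyp26a1 (7.91 ± 0.44) and wnt8a (7.30 ± 0.64). Aldh1a2, which makes retinoic acid, was at 2.94 ± 0.88 and was not called without the block (adjusted p = 0.0708, blocked 0.00818). In injected caps 7 rose, among them cyp26a1 by 7.24, cdx1 by 6.56, dhrs3 by 5.26 and wnt8a by 3.86. Between induced caps, 2 were lower on lhx1-AS/AcRA-labelled arrays, beside 6.94% of all probe sets. They were the Wnt ligands wnt3a (-4.29 ± 1.17, adjusted p = 0.0322) and wnt8a (-2.29 ± 0.64, adjusted p = 0.0375). With the block 6 were called, beside 18.9% of all either way. Block calls added cdx4 (-3.30 ± 1.06, adjusted p = 0.0674, blocked 0.0148) and rara (-1.39 ± 0.60, blocked 0.0435) as lower. They added rdh10 (0.98 ± 0.35, blocked 0.0349) and rarg (0.84 ± 0.28, blocked 0.0370) as higher. Between uninduced caps rdh10, which makes retinal, was higher with lhx1-AS by 2.41 ± 0.35 and dhrs3, which reduces retinal, was lower by 0.95 ± 0.23 on the log2 scale. The dhrs3 call was lost under both scaling alternatives and without the C array of experiment II or the lhx1-AS array of experiment II or III. Both Wnt calls were lost when any 1 of the AcRA arrays was left out, or the lhx1-AS/AcRA-labelled array of experiment I, and 1 gene was called lower without that of experiment III.

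Of 12 measured regulators of Hox clusters, mostly Polycomb group genes that keep them silent, 0 were called by limma in either AcRA comparison. Of all probe sets 3.09% and 4.00% were called higher there, and 2.62% and 4.09% lower. Among the 12, 1 and 3 had an unadjusted p under 0.05. With the block 0 and 2 were called, beside 10.4% and 13.0% of all probe sets either way. Injected against uninjected, 1 of the 12 was called higher between induced caps and 1 between uninduced caps. Of all probe sets 2.70% and 2.52% were. At an unadjusted p under 0.05 there were 5 and 4, beside 22.6% and 22.2% of all either way. With the block 3 and 5 were called, beside 18.9% and 17.8%. Bmi1 was higher on lhx1-AS/AcRA-labelled arrays than on AcRA arrays (1.64 ± 0.38, adjusted p = 0.0131), and rnf2 was higher in lhx1-AS than in C (0.86 ± 0.19, adjusted p = 0.0158). The first count of 1 became 0 without the AcRA array of experiment I or the lhx1-AS/AcRA-labelled array of experiment III, and the second without the C or lhx1-AS array of experiment III. Ezh2, the methyltransferase of the complex, was at 0.21 ± 0.22 with AcRA in uninjected caps (adjusted p = 0.819).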

How the data were processed

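Gene expression was measured on 12 Affymetrix Xenopus laevis arrays in 4 groups, taken from the sample labels. The authors computed and deposited the intensity of each probe set with GCOS, on a linear scale and with every array brought to 1 trimmed mean, and gave no detection calls. The table held 0 columns of other samples, and 0 pairs of arrays had identical values. Symbols came from the array's annotation, and 12 of the 14 probe sets matched RefSeq by gene ID.

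Of 15611 probe sets, 108 controls were left out. Signals under 1 (555, or 0.298%) were set to 1, and log2 values were fitted with limma 3.58.1 in R 4.3.3, as 4 group means with a variance trend and Benjamini-Hochberg adjustment over 15503 probe sets. The fit has 8 residual degrees of freedom, and precision is limited by how few arrays there are. The label I, II or III was taken as the experiment. Arrays of different groups from the same experiment deviated together from their group means (18 pairs, correlations 0.152 to 0.269, other 36 pairs -0.190 to -0.0037), which was taken as pairing. For the members, a blocked value stands beside a result whose call it changes. In the other lists the block also changed calls of genes whose blocked values are not given. The labels do not say that experiments were separate clutches, so p-values measure the spread between these arrays, which may in part be technical. The methods' t-test is an equal-variance test on linear signals.

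Members and lists were chosen with earlier results of these data known, so no list is independent evidence. All member probe sets are given. Of each other list the text names the called genes, at most the 4 with the largest change, and at least 1 that did not pass, a gene being read by its brightest probe set. Marker sums cover the measured genes of each list. Alternatives were the block, quantile and median scaling, 16 or 64 added to signals, the dimmest 40% of probe sets left out, no variance trend, compared groups only, the methods' t-test, counting genes, and each array left out. The model was tested on simulated data.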

Additional observations from a re-analysis of the deposited data

Results flagged for a closer look

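The AcRA response of hoxc6 probe set 1 differed between injected and uninjected caps by -4.54 on the log2 scale in the test of the difference itself with the experiment as a block (limma adjusted p = 0.0119), and by the same amount without the block (adjusted p = 0.132). The sign was negative in 3 of 3 experiments. The other hoxc6 probe set gave -0.35. The C signals of probe set 1 in experiments I and III, 2.84 and 6.88, lay under the 10th percentiles of those arrays, 5.92 and 12.0. With 64 added to every signal the difference was -1.95 and was not called.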

How the results depend on the processing

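Over all settings no called member difference changed sign. With the replicate block, the paired analysis, the calls went from 7 to 8 for AcRA against C, from 1 to 2 for lhx1-AS/AcRA against AcRA, from 0 to 1 for lhx1-AS against C, from 3 to 6 for lhx1-AS/AcRA against lhx1-AS and from 0 to 1 for the difference of responses, and no call was lost. Leaving out the dimmest 40% of probe sets kept 1 of the 14, hoxa7, which gave 1, 0, 0, 1 and 0 calls in the same order. The methods' t-test after adjustment gave 1, 0, 0 and 0 calls and unadjusted 8, 2, 2 and 4. For lhx1-AS/AcRA against AcRA, 16 or 64 added to the signals gave 2 or 3 calls, of which 1 was higher and the others lower. The compared groups alone gave 0. For lhx1-AS against C, quantile and median scaling each gave 1. Leaving out 1 array at a time gave 3 to 8, 0 to 1, 0 to 2, 1 to 5 and 0 to 1 calls. The single call in lhx1-AS/AcRA against AcRA was lost without AcRA array I or III or lhx1-AS/AcRA-labelled array II or III. The first comparison had its fewest calls without AcRA array III. In lhx1-AS against C, calls appeared without C array II (2) or lhx1-AS array I (1), in lhx1-AS/AcRA against lhx1-AS the count of 5 came without C array I, and the difference of responses had its 1 call without C array II. The cause of these changes was not tested. The t-test and the compared groups alone were not run for the difference of responses. Signals near the floor limit every fold against C, and that of hoxc10 against AcRA.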

Other observations

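A probe set whose annotation symbol is xhoxc8 was not among the genes above. The RefSeq table places its gene between hoxc6.L and hoxc9.L, where the probe set named hoxc8 reads the gene between hoxc6.S and hoxc9.S. Its signals were 1.81, 6.49 and 6.30 on C arrays, 76.1, 105 and 162 on AcRA arrays, 26.5, 23.4 and 28.2 on lhx1-AS arrays and 37.8, 65.1 and 50.1 on lhx1-AS/AcRA-labelled arrays. The lhx1-AS arrays lay above every C array, by 2.63 ± 0.65 (limma adjusted p = 0.0262), and AcRA raised it in uninjected caps by 4.70 ± 0.65 (adjusted p = 0.000439). In injected caps the AcRA difference was 0.94 ± 0.65 (adjusted p = 0.551). The difference of the responses was -3.76 ± 0.92 (adjusted p = 0.115, blocked 0.0425). It was picked after its values had been seen.

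The 8 genes with profiles nearest to the mean profile of the 9 Hox genes over the 12 arrays were sall1, tdrd7, mid1, dact4, foxc2, axin2, slc7a5 and hao2, out of 9290 probe sets with 1 gene symbol. Their root mean square distance on the log2 scale was 0.62 for sall1 to 0.71 for hao2. The Hox genes themselves lay at 0.59 (hoxd9) to 2.07 (hoxc10), so hoxc10 was the farthest of the 9 from their common profile. Foxc2 is a factor of paraxial and intermediate mesoderm and axin2 a target of Wnt signalling.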
